A study of Homo sapiens with 2 samples.

Results

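The mitochondrial genome of human cells encodes 37 genes, and all 37 were followed in HEK293 cells that lack LARP7 and in the parental cells. They were chosen by position alone, as every gene annotated on chrM in GENCODE v29 (GRCh38), and comprise 13 mRNAs, 2 ribosomal RNAs and 22 transfer RNAs among 57894 genes in all. Reads of 31349 of these 57894 genes were present in at least 1 library.

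Mitochondrial DNA is transcribed from promoters on each strand into long RNAs that span many genes. Transfer RNAs sit between most of the rRNAs and mRNAs, and their excision by RNase P and RNase Z frees the mature RNAs in between, which is known as the tRNA punctuation model. The mRNAs encode core subunits of respiratory complexes I, III and IV and of ATP synthase (complex V), the rRNAs form the mitochondrial ribosome with imported proteins, and all factors for transcription, processing and decay of these RNAs are encoded in the nucleus.

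HEK293 is an established line derived from human embryonic kidney. The LARP7 knockout group was 1 clone (clone 1-11) with 2 libraries, and the parental group was the unedited HEK293 line with 2 libraries. Both were grown in DMEM with fetal bovine serum and sequenced from total RNA with the Ovation SoLo kit, so that RNA with and without a poly(A) tail could be read. LARP7 belongs to the La family of RNA-binding proteins and protects 7SK, the small nuclear RNA that keeps P-TEFb, a transcription elongation kinase, inactive. With a single clone, the loss of LARP7 and other changes fixed in that clone cannot be told apart. Both libraries of a group were deposited as 1 sample. The labels do not say if they stem from different cultures, so the p-values cover only their own, perhaps technical, spread.

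The libraries held 16838501 and 16218587 estimated reads in the knockout and 18483220 and 12851942 in parental cells. Levels below are CPM, each library's reads brought to 1 size with TMM factors, unless another scale is named. 7SK was at 169 and 205 CPM in the knockout and at 5572 and 5481 CPM in parental cells (log2 fold change -4.89, SE 0.12, edgeR adjusted p = 1.13e-06). LARP7 mRNA itself was at 36.1 and 31.9 CPM in the knockout and at 59.8 and 46.5 CPM in parental cells, and this difference missed the threshold (edgeR adjusted p = 0.135), though DESeq2 called it lower. All 6 HEK293 markers were present, at 4.32 to 521 CPM, and 6 markers of other cell types lay between 0 and 0.467 CPM, with 4 of them at 0 in every library. Libraries differed in fragment length and in short transcripts. Fragment length was gauged by length minus effective length, as the median over long transcripts. It was 232.9 and 225.8 bases in the knockout and 217.0 and 206.7 bases in parental cells. Transcripts under 300 bases held 35.1 and 39.5% of the TPM in the knockout and 40.5 and 55.8% in parental cells. The part of these library differences in the results below was not tested.

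Mitochondrial RNA took a smaller part of the knockout libraries. The 37 genes held 8.25 and 7.60% of all reads in the knockout, against 11.5 and 12.4% in parental cells, with no overlap. The mean was 7.92 ± 0.457% in the knockout and 11.96 ± 0.596% in parental cells (SD, n = 2 each; two-sided exact permutation p = 0.333, which is the smallest p that 2 against 2 libraries allow). The 13 mRNAs accounted for 6.86 and 6.14% of reads in the knockout and for 9.97 and 10.4% in parental cells. The 2 rRNAs accounted for 1.38 and 1.46% in the knockout and for 1.57 and 2.01% in parental cells. In bulk RNA, fewer mitochondria or mitochondrial genomes per cell and less RNA from each cannot be told apart.

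Of the 13 mRNAs, 11 fell in the knockout (edgeR quasi-likelihood test, adjusted p under 0.05 over the 18484 genes tested) and none rose. Across all genes tested, 0.503% were called lower and 0.33% were called higher. In all 13 mRNAs both knockout libraries lay below both parental libraries, and the same was true of 22.7% of all genes tested. The median log2 fold change was -0.78 over the 13 mRNAs and 0.00 over all genes tested. The mRNAs that passed the test ranged from -0.54 for MT-CO1 to -1.45 for MT-ATP8. MT-ND1 and MT-ND2 did not pass. No mRNA had both knockout libraries above both parental ones, which 23.5% of all genes tested did. DESeq2 called 15 of the 37 genes lower, 12 of them mRNAs, where it called 1.41% of all genes tested; it added MT-ND2 (DESeq2 adjusted p = 0.0117). With limma voom 11 were lower, against 0.498% of all genes.

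Among the mRNAs and rRNAs, the 4 largest falls belonged to the genes of the pairs that share an mRNA with an overlapping reading frame, MT-ATP8 with MT-ATP6 and MT-ND4L with MT-ND4. This grouping was noticed after the values were seen and was not tested. The last 46 bases of MT-ATP8 are also the first of MT-ATP6, and the last 7 bases of MT-ND4L are also the first of MT-ND4. The shared stretches are shown because a read that lies inside one belongs to both genes. Both sequences are from the + strand of chrM, GENCODE v29 transcripts on GRCh38, the first at chrM:8517-8582 and the second at chrM:10750-10776, with the shared bases in capitals.
MT-ATP8/MT-ATP6: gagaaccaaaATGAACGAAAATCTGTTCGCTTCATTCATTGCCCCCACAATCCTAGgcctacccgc
MT-ND4L/MT-ND4: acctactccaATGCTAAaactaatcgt
Each run of capitals opens with the ATG start codon of the downstream gene and holds the stop codon of the upstream one.

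MT-ATP8 (chrM:8366-8572) encodes a small membrane subunit of ATP synthase. It was at 195 and 190 CPM in the knockout and at 483 and 568 CPM in parental cells. The groups lay far apart compared with the gap within either one. The mean was 192 ± 3.46 CPM in the knockout and 526 ± 60.2 CPM in parental cells (SD, n = 2 each), which is a log2 fold change of -1.45 (SE 0.12) with an edgeR adjusted p of 0.00206. At 207 bases it is about as short as the fragments themselves, so its read count depends on fragment length more than that of the longer mRNAs. With an offset for the effective length in each library its log2 fold change was -1.21.

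MT-ATP6 (chrM:8527-9207) encodes the subunit that forms part of the proton channel of ATP synthase. It was at 4798 and 4118 CPM in the knockout and at 9251 and 9781 CPM in parental cells. Both parental libraries were about equally high. Its log2 fold change was -1.09 (SE 0.09, edgeR adjusted p = 0.00206), and -1.06 with the effective length offset.

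MT-ND4L (chrM:10470-10766) and MT-ND4 (chrM:10760-12137) encode membrane subunits of complex I. MT-ND4L was at 730 and 616 CPM in the knockout and at 1383 and 1733 CPM in parental cells (log2 fold change -1.21, SE 0.14, edgeR adjusted p = 0.0071). MT-ND4 was at 8251 and 7025 CPM in the knockout and at 14706 and 17448 CPM in parental cells (log2 fold change -1.07, SE 0.10, edgeR adjusted p = 0.00403). In both genes the libraries of each group differed by more than in MT-ATP6, and the groups did not overlap.

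These 4 genes remained the 4 lowest of the 15 mRNAs and rRNAs on each of the 19 settings compared, which include the reported one, both TPM scales and each library left out in turn. All settings use the same libraries in which these 4 genes were picked, so they are no separate test of the grouping. The gap to the next gene was small. On reads, the highest of the 4 was MT-ND4 at -1.07 and the next gene, MT-ND6, was at -0.93, a gap little larger than the SE of either value.

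**Figure D1:**
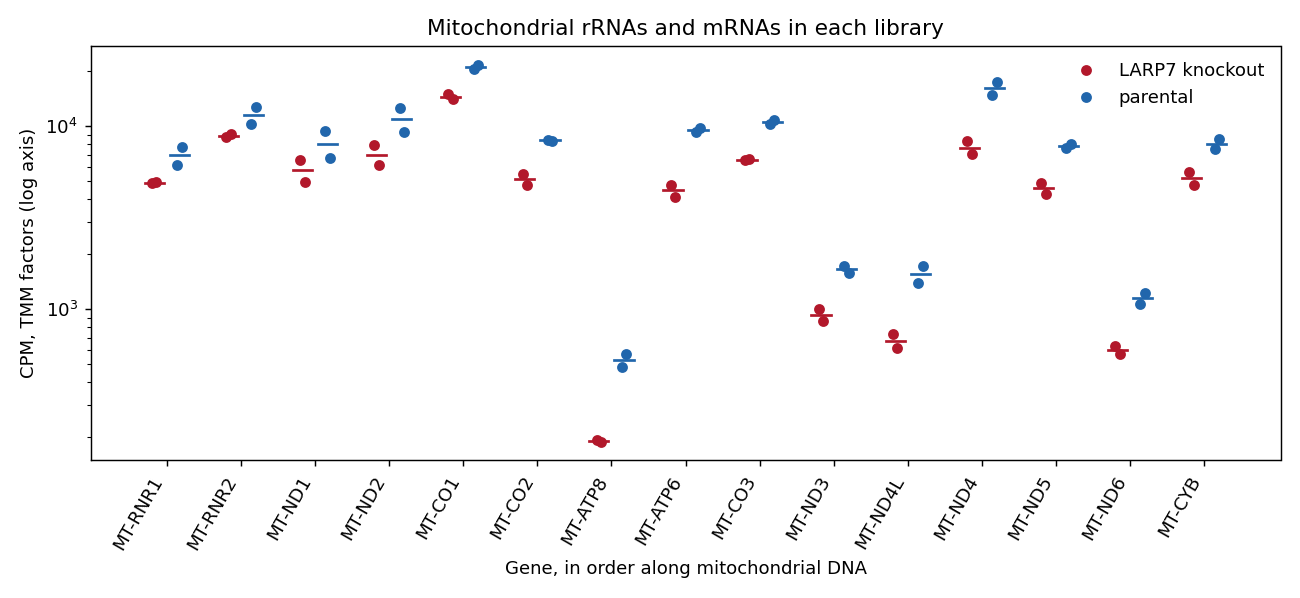
CPM (log axis) of the 2 rRNAs and 13 mRNAs, in order along mitochondrial DNA; points are libraries (LARP7 knockout left, parental right within each gene) and lines are means. All points of the knockout lie below those of parental cells within each gene, most closely for MT-ND1, where the nearest values are 6507 CPM in the knockout and 6667 CPM in parental cells.

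The 3 catalytic core subunits of cytochrome c oxidase (complex IV) fell less than the overlapping pairs. MT-CO1, which carries the heme a sites, was at 14890 and 14055 CPM in the knockout and at 20377 and 21624 CPM in parental cells (log2 fold change -0.54, SE 0.07, edgeR adjusted p = 0.0104). It had more reads than any other mitochondrial gene in all 4 libraries. MT-CO2, which receives electrons from cytochrome c, was at 5511 and 4754 CPM in the knockout and at 8394 and 8318 CPM in parental cells (log2 fold change -0.70, SE 0.09, edgeR adjusted p = 0.0107). MT-CO3 was at 6526 and 6596 CPM in the knockout and at 10234 and 10808 CPM in parental cells (log2 fold change -0.68, SE 0.07, edgeR adjusted p = 0.00489). MT-CO3 starts on the last base of MT-ATP6, with no tRNA between them, and its fold change was nearer to those of MT-CO1 and MT-CO2 than to that of MT-ATP6.

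MT-CYB, the cytochrome b of complex III, was at 5624 and 4779 CPM in the knockout and at 7506 and 8558 CPM in parental cells (log2 fold change -0.63, SE 0.10, edgeR adjusted p = 0.0344). Its adjusted p was the highest of the 11 that passed.

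The remaining complex I mRNAs differed among themselves. MT-ND5, the longest mRNA with 1812 bases, was at 4888 and 4247 CPM in the knockout and at 7635 and 8028 CPM in parental cells (log2 fold change -0.78, SE 0.09, edgeR adjusted p = 0.0071). MT-ND3 was at 1004 and 865 CPM in the knockout and at 1716 and 1584 CPM in parental cells (log2 fold change -0.82, SE 0.11, edgeR adjusted p = 0.0152). Both fell, with groups well apart. MT-ND1 was at 6507 and 4986 CPM in the knockout and at 9383 and 6667 CPM in parental cells. MT-ND2 was at 7865 and 6117 CPM in the knockout and at 12551 and 9298 CPM in parental cells. For MT-ND1 the log2 fold change was -0.48 (SE 0.17, edgeR adjusted p = 0.25) and for MT-ND2 it was -0.64 (SE 0.15, edgeR adjusted p = 0.121). These values moved with single libraries. Without parental replicate 1 they were -0.22 for MT-ND1 and -0.42 for MT-ND2, and without knockout replicate 2 they were -0.30 and -0.47. Without knockout replicate 1 they were -0.69 for MT-ND1 and -0.84 for MT-ND2, and without parental replicate 2 they were -0.71 and -0.85, all from edgeR. The higher knockout library of MT-ND1 nearly reached the lower parental one.

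Those neighbouring genes stood apart in how the replicates differed. Replicate 2 was lower than replicate 1 in both groups, by a log2 difference of -0.38 in the knockout and -0.49 in parental cells for MT-ND1, and by -0.36 in the knockout and -0.43 in parental cells for MT-ND2. In the knockout the other 13 RNAs ranged from -0.25 (MT-ND4L) to 0.05 (MT-RNR2), and in parental cells from -0.11 (MT-ND3) to 0.33 (MT-RNR1 and MT-ND4L). The standard errors of MT-ND1 and MT-ND2 were accordingly the largest of the 15. Over the 15 RNAs the replicate differences of the groups had a Pearson r of 0.68, against 0.13 over all 18484 genes tested. MT-ND1 and MT-ND2, the lowest points in both groups, weigh heavily on the r of 0.68, which was not computed without them. Both r values are descriptions across genes that share libraries. Labels give the same replicate numbers to both groups without saying what they mark.

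**Figure D2:**
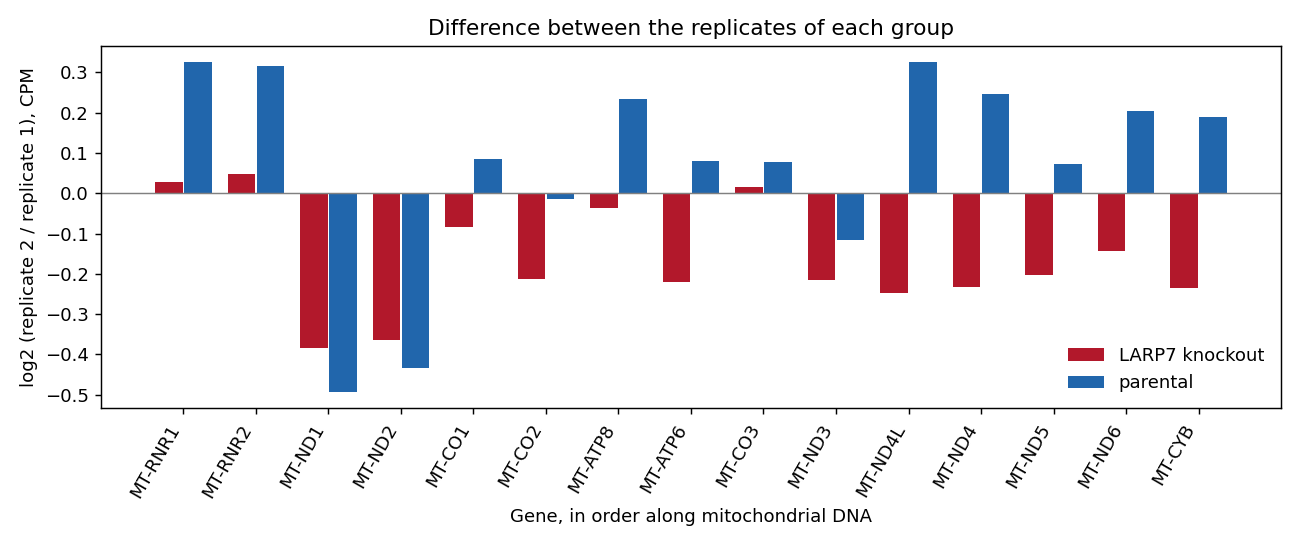
Log2 ratio of replicate 2 over replicate 1 (CPM) for the 2 rRNAs and 13 mRNAs, in order along mitochondrial DNA; bars are LARP7 knockout (left) and parental cells (right). MT-ND1 and MT-ND2 are below -0.3 in both groups, whereas most other genes are below 0 in the knockout and above 0 in parental cells.

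Without knockout replicate 2, MT-CO1, MT-CO2, MT-ND3 and MT-CYB no longer passed, with log2 fold changes of -0.49, -0.60, -0.71 and -0.51. In such a fit the lone library of a group is assumed to vary like the other group, which alone gives the spread. For MT-ATP8, MT-ATP6, MT-CO3, MT-ND4L, MT-ND4, MT-ND5 and MT-ND6 the log2 fold changes with 1 library left out lay between -1.57 (MT-ATP8) and -0.645 (MT-CO3).

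MT-ND6 (chrM:14149-14673, - strand) is the single mRNA read from the other strand, and encodes a complex I subunit. It was at 632 and 572 CPM in the knockout and at 1066 and 1227 CPM in parental cells (log2 fold change -0.93, SE 0.12, edgeR adjusted p = 0.0107). MT-ND6 thus fell along with the mRNAs of the opposite strand. Per 100 TPM of the other 12 mRNAs, MT-ND6 was at 2.09 and 2.15 in the knockout and at 2.12 and 2.39 in parental cells, with overlap. On reads, that proportion was 0.946 and 0.981 per 100 in the knockout and 1.03 and 1.18 per 100 in parental cells, with no overlap. The strand setting of the counting is not given in the sources used here, and RNA antisense to MT-ND6, from the opposite strand, could be counted with it if strand was not used.

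Neither rRNA passed the test, while DESeq2 called 1 of the 2, MT-RNR1, and limma voom 0. MT-RNR1 (chrM:648-1601), the 12S RNA of the small subunit, was at 4873 and 4969 CPM in the knockout and at 6173 and 7732 CPM in parental cells (log2 fold change -0.50, SE 0.11, edgeR adjusted p = 0.0855). MT-RNR2 (chrM:1671-3229), the 16S RNA of the large subunit, was at 8711 and 9005 CPM in the knockout and at 10266 and 12789 CPM in parental cells (log2 fold change -0.38, SE 0.10, edgeR adjusted p = 0.149). In both rRNAs the parental libraries differed from each other more than the knockout libraries did, and parental replicate 2 was the highest. Without parental replicate 2 the log2 fold change was -0.33 for MT-RNR1 and -0.22 for MT-RNR2, and without parental replicate 1 it was -0.66 for MT-RNR1 and -0.53 for MT-RNR2. Those fits take their spread from the knockout libraries alone, which lay closer together. With either knockout library left out, neither rRNA passed. The labels do not say whether rRNA was depleted, and the part of depletion in these levels was not tested. The ratio of rRNA to mRNA, in TPM, was 0.127 and 0.151 in the knockout and 0.0965 and 0.121 in parental cells. The mean ratio was 0.139 ± 0.0165 in the knockout and 0.109 ± 0.0171 in parental cells (SD, n = 2 each; two-sided exact permutation p = 0.333, again the smallest possible). The groups did not overlap, but knockout replicate 1 and parental replicate 2 were within 0.01 of each other.

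Fold changes depended on the scale, and most so for the shortest mRNAs. TPM divides reads by effective length and shares a fixed total among all transcripts. On deposited TPM the median gene tested had a log2 ratio of 0.41 (knockout over parental), and the mitochondrial values were higher than on reads too, at -0.79 for MT-ATP8, -0.12 for MT-CO1, -0.05 for MT-RNR1 and 0.05 for MT-RNR2, the last with its sign turned. The step between these scales was 0.40 for MT-ND1 and MT-ND2 and 0.42 for MT-CO1, but 0.53 for MT-ND3, 0.60 for MT-ND4L and 0.66 for MT-ATP8. The rRNAs held 1.14 and 1.13% of deposited TPM in the knockout and 1.14 and 1.12% in parental cells. When TPM was recomputed over transcripts of at least 300 bases, an alternative chosen after seeing the data, the median gene was at 0.13. Only the fixed total was limited to those transcripts. Shorter ones, such as MT-ATP8 (207 bases) and MT-ND4L (297 bases), were divided by the same total and so have values too. The log2 ratios were then -1.07 for MT-ATP8, -0.94 for MT-ND4, -0.93 for MT-ATP6, -0.91 for MT-ND4L, -0.40 for MT-CO1 and -0.25 for MT-RNR2. MT-ATP8 was 0.38 and MT-ND4L 0.30 above their values on reads, and MT-CO1 was 0.14 above. On that scale the groups overlapped in MT-ND1 and MT-RNR2, whereas on CPM they did not.

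**Figure D3:**
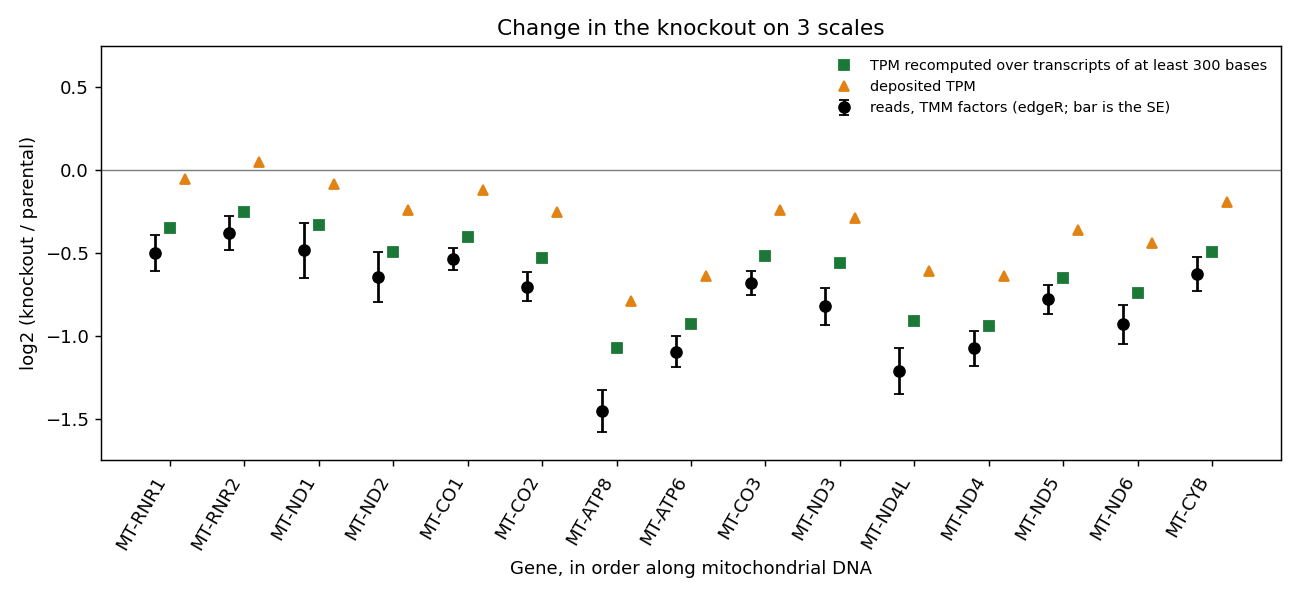
Log2 ratio of LARP7 knockout over parental cells for the 2 rRNAs and 13 mRNAs, on reads (circles, with SE), on recomputed TPM (squares) and on deposited TPM (triangles). The pattern along the genome is alike on the 3 scales, with MT-ATP8, MT-ATP6, MT-ND4L and MT-ND4 lowest, while the median of all genes is at 0.00, 0.13 and 0.41 on those scales.

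Levels per length changed order with these falls. On recomputed TPM, MT-ATP6 was 4th in the knockout, at 13225 ± 1178, behind MT-CO3 (15871 ± 452), MT-CO2 (15125 ± 1291) and MT-CO1 (14790 ± 217) (SD, n = 2 each). In parental cells MT-ATP6 was first, at 25124 ± 1779, followed by MT-CO3 (22784 ± 1659), MT-CO2 (21905 ± 553) and MT-CO1 (19574 ± 1634). Among the leading 3 genes of each group, the ranges of neighbours in the order overlapped. The range of MT-CO3 did not overlap that of MT-CO1 in the knockout, nor that of MT-ATP6 that of MT-CO2 in parental cells. MT-ATP6 lay below all 3 cytochrome oxidase mRNAs in both knockout libraries and above all 3 in both parental ones. MT-ND4L and MT-ND4 were 7th and 11th in the knockout and 5th and 6th in parental cells. MT-ND5 and MT-ND6 were the lowest of the 15 in both groups, MT-ND6 at 2713 ± 151 in the knockout and 4517 ± 556 in parental cells.

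By complex, the ATP synthase mRNAs took a smaller part of the mRNA pool in the knockout and the cytochrome oxidase mRNAs a larger one. Complex V mRNAs made up 15.5 and 15.7% of the mitochondrial mRNA TPM in the knockout and 19.2 and 19.9% in parental cells. Complex IV mRNAs made up 33.8 and 36.4% in the knockout and 30.9 and 31.9% in parental cells. Neither pair of groups overlapped, and each had the smallest p that the exact permutation test allows (p = 0.333, two-sided). Complex I mRNAs made up 44.8 and 42.1% in the knockout and 45.0 and 42.6% in parental cells, with overlap. MT-CYB alone, for complex III, made up 5.91 and 5.79% in the knockout and 4.89 and 5.58% in parental cells, with no overlap.

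The partners of the overlapping pairs were also compared with each other. The TPM ratio of MT-ATP8 to MT-ATP6 was 0.514 and 0.566 in the knockout and 0.602 and 0.589 in parental cells, with no overlap and a log2 ratio of -0.14. On reads, which carry the length effect, it was 0.0405 and 0.0461 in the knockout and 0.0522 and 0.0581 in parental cells, a log2 ratio of -0.35. The TPM ratio of MT-ND4L to MT-ND4 was 1.11 and 1.07 in the knockout and 1.09 and 1.06 in parental cells, with overlap. Salmon divides a read that fits both partners between them, so these ratios carry an assignment error that the replicates do not show.

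Features that the choice of members did not use were set beside the fold changes as a description across genes. Shorter mRNAs and mRNAs with less G and C had lower fold changes: over the 13 mRNAs, Spearman's rho of the log2 fold change was 0.63 with length and 0.72 with GC content. With the effective length offset, rho was 0.48 with length and 0.67 with GC content. Position along the genome had a rho of -0.35 over the 13 mRNAs and -0.57 over the 15 RNAs with the rRNAs at the start. All points share the same 4 libraries.

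The ends of the mRNAs differ in a way known for this genome. In 6 of 13 mRNAs the annotated gene ends inside the stop codon, which is completed by the poly(A) tail. In 7 it ends with a codon counted here as a full stop codon, AGA in MT-CO1, AGG in MT-ND6 and TAA or TAG in the rest. The last 18 bases of 4 mRNAs are shown as examples of both kinds, with the stop codon bases of the gene in capitals (+ strand of chrM, GENCODE v29, GRCh38, ending at 4262, 9990, 9207 and 8269).
MT-ND1: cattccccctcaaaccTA
MT-CO3: tctattgatgagggtctT
MT-ATP6: ctgcacgacaacacaTAA
MT-CO2: cccgtatttaccctaTAG
The log2 fold changes of the 6 mRNAs with an incomplete stop codon ranged from -1.07 to -0.48, with a median of -0.66. Those of the 7 with a full stop codon ranged from -1.45 to -0.54, with a median of -0.93, so the kinds overlapped.

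The tRNAs, of 59 to 75 bases each, were thinly covered. All 22 together had 410 and 373 reads in the knockout and 739 and 2040 in parental cells, or 0.00243 and 0.00230% of all reads in the knockout and 0.00400 and 0.0159% in parental cells. Parental replicate 2, the library with the shortest fragments, had most of them. Only 6 tRNAs passed the filter on low counts, none was called by edgeR or limma voom, and all 6 had an unadjusted p under 0.05, against 14.2% of all genes tested. DESeq2 called 2, MT-TK and MT-TH. The filter can be passed through the higher group alone. In 11 of the 22 both knockout libraries lay below both parental ones, against 22.7% of the genes tested, in the other 11 they overlapped, and among these MT-TY and MT-TT had no read in any library. The 22.7% is over genes that passed the filter, which most tRNAs did not. A count of 0 in libraries this shallow for tRNAs shows only that none was detected.

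MT-TV, the valine tRNA between the rRNAs, held 60 and 63.5% of the tRNA reads in the knockout and 64.0 and 63.0% in parental cells. Its gene (chrM:1602-1670, + strand, GENCODE v29, GRCh38) is shown whole because it leads the tRNA reads in every library, with no base set in capitals.
MT-TV: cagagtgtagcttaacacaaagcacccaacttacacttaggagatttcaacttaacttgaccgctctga
MT-TV was at 14.4 and 14.02 CPM in the knockout and at 26.9 and 102 CPM in parental cells (log2 fold change -2.17, SE 0.50, edgeR adjusted p = 0.113). Its parental libraries differed from each other more than the lower of them differed from the knockout. Without parental replicate 2 the log2 fold change was -0.92, and over all fits with 1 library left out it ranged from -2.85 to -0.92.

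Among the other tRNAs, MT-TH (histidine) had 56 and 43 reads in the knockout and 76 and 233 in parental cells. MT-TK (lysine) had 27 and 32 reads in the knockout and 71 and 155 in parental cells. MT-TI (isoleucine) had 25 and 19 reads in the knockout and 35 and 108 in parental cells. In all 3, parental replicate 2 was more than 2-fold above every other library. MT-TE (glutamate) had 6 and 15 reads in the knockout and 20 and 58 in parental cells. MT-TQ (glutamine) had 1 and 0 reads in the knockout and 12 and 14 in parental cells, and it overlaps MT-TI by 3 bases on the opposite strand. MT-TM (methionine) had 6 and 1 reads in the knockout and 3 and 45 in parental cells, MT-TC (cysteine) had 7 and 6 in the knockout and 6 and 33 in parental cells, and MT-TD (aspartate) had 7 and 2 in the knockout and 6 and 29 in parental cells. The groups overlapped in these 3, again with parental replicate 2 highest. MT-TS1 (serine) had 4 and 1 reads in the knockout and 9 and 27 in parental cells, and MT-TA (alanine) had 7 and 1 in the knockout and 10 and 9 in parental cells. MT-TG (glycine) had 4 and 5 reads in the knockout and 1 and 12 in parental cells, and MT-TP (proline) had 6 and 8 in the knockout and 6 and 10 in parental cells. The other 9 tRNAs had 0 to 9 reads in any library. By strand, the 14 tRNAs read in the same direction as the rRNAs had 376 and 341 reads in the knockout and 673 and 1880 in parental cells, and the 8 in the other direction had 34 and 32 in the knockout and 66 and 160 in parental cells.

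Many mitochondrial genes have annotated copies in nuclear DNA, and short reads can fit both. Of 50-base windows, 49.5% of MT-CO1, 46.7% of MT-ATP6, 43.6% of MT-ND2, 30.6% of MT-CO3, 29% of MT-CO2 and 22.1% of MT-ND1 occurred exactly in a transcript from another chromosome. That share was 3.5% for MT-ND4 and 0 for MT-ND4L, MT-ND3 and MT-RNR1. All 406 annotated copies together held 1.92 and 2.17% of the reads on mitochondrial genes and copies in the knockout and 2.35 and 3.06% in parental cells. Adding each copy's reads to its mitochondrial gene, an alternative chosen after seeing the data, gave log2 fold changes with a median of -0.78 over the 13 mRNAs. Over the 2 rRNAs the median was then -0.47, against -0.44 without the copies. Copies of MT-RNR2 held 4.13 and 5.21% of the reads on the gene and its copies in the knockout. In parental cells they held 6.43 and 9.41%.

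The most read copy was MTATP6P1, part of a stretch of mitochondrial DNA on chromosome 1, which differs from MT-ATP6 at 10 of 681 bases (98.5% identity). A stretch of each is shown to make plain how few bases separate reads of the gene from reads of the copy (GENCODE v29, GRCh38, + strand, chrM:8642-8701 and chr1:633811-633870; differing bases in capitals).
MT-ATP6: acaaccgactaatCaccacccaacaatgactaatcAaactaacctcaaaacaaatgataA
MTATP6P1: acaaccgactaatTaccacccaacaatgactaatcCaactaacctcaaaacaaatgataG
Counted from the first base of MT-ATP6, the differences in this stretch are C129T, A151C and A175G, with the base of MT-ATP6 first. MTATP6P1 was at 731 and 658 CPM in the knockout and at 1454 and 1656 CPM in parental cells (log2 fold change -1.16, SE 0.11, edgeR adjusted p = 0.00398), close to the -1.09 of MT-ATP6. Copies of MT-ATP6 held 13.4 and 13.9% of the reads on the gene and its copies in the knockout and 13.6 and 14.5% in parental cells.

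Of the 406 copies, 54 passed the filter, 8 were called lower and 0 higher (edgeR), and 17 had an unadjusted p under 0.05. Over all genes tested 0.503% were called lower and 14.2% had such an unadjusted p. DESeq2 called 9 lower and 0 higher, and limma voom 7 lower and 0 higher. Reads may be divided between a copy and its mitochondrial gene, so these calls are not independent of those above. Among the most read, MTND4P12 had a log2 fold change of -2.14 (edgeR adjusted p = 0.0126), MTCO2P12 of -1.73 (0.0071), MTCO3P12 of -1.54 (0.0382) and MTND2P28 of -1.28 (0.00615). MTRNR2L12 (log2 fold change -1.23, edgeR adjusted p = 0.0835), MTRNR2L8 (-1.20, 0.119) and MTCO1P12 (-0.66, 0.0644) did not pass. Chosen after their values were seen, the 5 copies on chromosome X with at least 100 reads in a library had log2 fold changes between -0.30 and -0.02, and none was called (smallest edgeR adjusted p = 0.571). One of them, MTND5P26, was at 13.8 and 14.2 CPM in the knockout and at 11.9 and 16.5 CPM in parental cells.

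**Figure D4:**
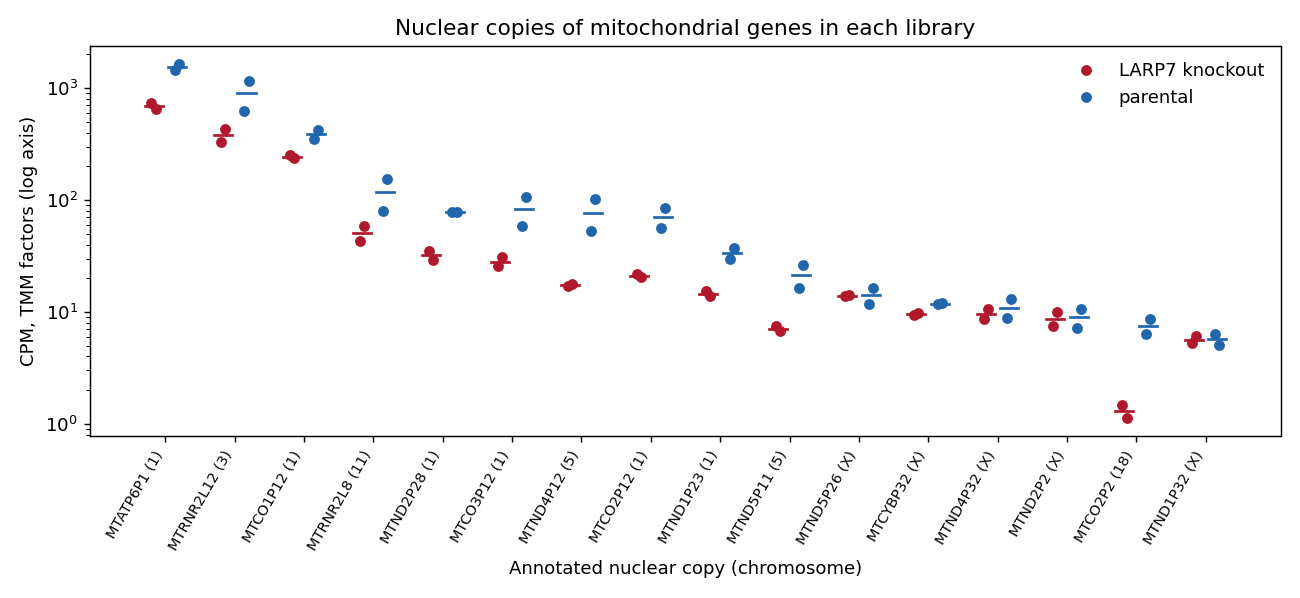
CPM (log axis) of the 16 annotated nuclear copies with at least 100 reads in a library, with their chromosome; points are libraries (LARP7 knockout left, parental right) and lines are means. For the copies on chromosomes 1, 3, 5, 11 and 18 the knockout points lie below the parental ones, while of the 5 copies on X the points overlap in 4, the exception being MTCYBP32.

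No nuclear partner of the mitochondrial mRNAs passed the test. Of 79 nuclear subunits of complexes I to V, all tested, 0 were called by edgeR in either direction, against 0.833% of all genes tested, and 13 had an unadjusted p under 0.05, as did 14.2% of all genes tested. DESeq2 and limma voom also called 0 of the 79. Their median log2 fold change was -0.05, with 49 below 0 and 30 above. The median was -0.05 for complex I, 0.00 for complex II, -0.23 for complex III, 0.06 for complex IV and -0.05 for complex V. Complex II has no mitochondrially encoded subunit.

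The nuclear subunits with the smallest p in each complex had changes of modest size. Over all 79 subunits the log2 fold changes ran from -0.48 to 2.6, the highest in complex I. For complex I, NDUFV3 was at 53.7 and 50.1 CPM in the knockout and at 71.1 and 70.1 CPM in parental cells (edgeR adjusted p = 0.162), and NDUFA3 was at 18.9 and 19.7 CPM in the knockout and at 26.2 and 27.6 CPM in parental cells (edgeR adjusted p = 0.241). In complex II, SDHA and SDHB had log2 fold changes of -0.07 and 0.07 (edgeR adjusted p = 0.841 and 0.855). For complex III, the values were -0.44 for CYC1, the cytochrome c1 subunit, and -0.41 for UQCRC1 (edgeR adjusted p = 0.17 and 0.235). For complex IV, COX6C had -0.44 and COX6A1 0.32 (edgeR adjusted p = 0.164 and 0.261). For complex V, ATP5PF had -0.40 and ATP5ME -0.39 (edgeR adjusted p = 0.244 and 0.315).

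Of 44 nuclear factors that transcribe, process, stabilise or replicate mitochondrial nucleic acids, 0 were called by edgeR, against 0.833% of all genes tested, and 2 had an unadjusted p under 0.05, against 14.2%, with a median log2 fold change of -0.02. DESeq2 called 1, FASTK, and limma voom called 0. The 2 with the unadjusted p under 0.05 belong to the FASTK family of RNA-binding proteins that act on mitochondrial transcripts. FASTK, known for its part in the stability of MT-ND6 mRNA, was at 28.0 and 22.4 CPM in the knockout and at 41.5 and 49.4 CPM in parental cells (log2 fold change -0.85, SE 0.17, edgeR adjusted p = 0.0689). FASTKD2, which binds the 16S rRNA, was at 77.9 and 76.3 CPM in the knockout and at 61.7 and 49.2 CPM in parental cells (log2 fold change 0.47, SE 0.14, edgeR adjusted p = 0.185). Neither pair of groups overlapped. The transcription and packaging factor TFAM was at 163 and 143 CPM in the knockout and at 198 and 154 CPM in parental cells, with overlap (log2 fold change -0.21, edgeR adjusted p = 0.587), and MTERF3 had a log2 fold change of -0.45 (edgeR adjusted p = 0.358). Among stability factors, DHX30 had -0.30 and RBFA, which acts on the 12S rRNA, -0.38 (edgeR adjusted p = 0.386 and 0.405). Among replication factors, the single-stranded DNA-binding protein SSBP1 had -0.35 and the topoisomerase TOP1MT -0.33 (edgeR adjusted p = 0.358 and 0.399).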

How the data were processed

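Per the file headers, the authors' deposited tables give per transcript the estimated counts and the TPM that Salmon writes, with its effective length. Per the submitters' processing notes, build hg38 was used with Salmon 1.6, STAR 2.5.3a, edgeR 3.24.3, cutadapt 1.6, Picard and SAMtools 1.3.1, in R versions 3.5.1 and 3.3.3. Which annotation release and strand setting were used is not given in the sources used here. Transcripts were joined to GENCODE v29 (197318 of 198002 matched), summed per gene and rounded. All genes were tested with edgeR 4.0.16 (R 4.3.3; filterByExpr, TMM factors, quasi-likelihood F test, Benjamini-Hochberg adjustment, threshold 0.05), knockout over parental; the SE is the log2 fold change over the root of F. Shares and ratios had a two-sided exact permutation test. Alternatives were DESeq2 1.42.0, limma 3.58.1 voom, other scalings and filters, a length offset, a fit with a replicate block, and fits that leave out 1 library. The test was also run on simulated counts with a single fixed dispersion for all genes, so their spread was not taken from these libraries.

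The members and lists were chosen with earlier results of these data known. Named were all mRNAs and rRNAs, tRNAs with at least 10 reads in 1 library, list members that passed or else the 2 with the smallest p per list, and at most 8 nuclear copies with the most reads (at least 100 in a library); copies on chromosome X were named after their values were seen. The 7SK gene has a pair of entries at 1 locus; the one with reads was used, chosen after its values were seen. The knockout sample carries the word wildtype in its source name; the genotype label and title were followed.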

Additional observations from a re-analysis of the deposited data

How the results depend on the processing

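No log2 fold change of a tested mitochondrial gene changed sign in any read-based alternative. The number of mitochondrial genes called lower was 11, and 23 with no filter on low counts; leaving out 1 library gave 10 to 24, and 7 to 13 for the mRNAs alone. Over all genes, 93 were called lower and 61 higher, against 260 and 183 with DESeq2 and 460 and 371 with no filter, 106 higher with library size alone, and 128 to 1132 lower and 66 to 1133 higher with 1 library left out. With the replicate number as a replicate block, 21 mitochondrial genes and 888 of all genes were called lower and 768 higher; the labels do not say what the numbers mark, and with 2 pairs they do not show a pairing. The log2 ratio of the share of reads was -0.59 for all mitochondrial genes, -0.64 for mRNAs and -0.33 for rRNAs, and on deposited TPM -0.36, -0.37 and -0.001, where the median of all genes is shifted too. For rRNAs it was -0.50 to -0.14 with 1 library left out. The log2 ratio for MT-ND6 against the other mRNAs was -0.09, -0.19 on reads, and -0.17 to 0.004 with 1 library left out. Other signs that turned were those of the complex I share (-0.011; -0.058 to 0.033 with 1 library left out) and of MT-ND4L to MT-ND4 (0.03; -0.135 on reads, -0.006 to 0.058 with 1 library left out). The cause of these changes was not tested. Few reads fell on most tRNAs, and MT-TQ did not pass the filter with 1 of the libraries left out.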
